A study of Drosophila melanogaster with 12 samples.

Results

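Gad1 (CG14994), Gdh (CG5320), Gs2 (CG1743) and CG7145, whose current symbol is P5CDh1, code for enzymes that make or consume glutamate or GABA in the fly. They were found on the arrays by gene symbol or CG number, and they took 5 of the 13824 features, since Gad1 had 2 probes and the others 1 each. Every one of the 5 is described, each probe apart. The 4 genes are among those that the study itself grouped under glutamate metabolism on its list of genes lower on the 7th day. That list was made on these same arrays, so it is no independent evidence of their direction. Oregon-R wild type males, unmated and 3 to 4 days old at the start, were kept on normal food (NF) or on NF with pentylenetetrazole (PTZ), a drug that blocks GABA-gated chloride channels, at 8 mg per ml. Every vial started with 30 flies. RNA of whole heads, pooled over flies of several vials, was compared between PTZ and NF on 2-colour cDNA arrays at 3 time points, namely 12 hrs, 2nd day and 7th day of PTZ, with 4 replicates that the methods call biological at each time point. A ratio from whole heads covers brain, eye, fat body and muscle together, and fewer cells of a type cannot be told apart from less RNA per cell.

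Glutamate is the excitatory transmitter of the fly's nerve-muscle junction and the precursor of GABA, the main inhibitory transmitter of its brain. Glutamate decarboxylase, the product of Gad1, makes GABA from glutamate in a single step and marks GABAergic neurons. Glutamine synthetase, the product of Gs2, turns glutamate and ammonia into glutamine in the cytosol, in the brain chiefly in glia, which take up released glutamate. Glutamate dehydrogenase, the product of Gdh, interconverts glutamate and alpha-ketoglutarate in mitochondria and so joins glutamate to the citric acid cycle. CG7145 codes for delta-1-pyrroline-5-carboxylate dehydrogenase, the mitochondrial enzyme that completes the breakdown of proline to glutamate.

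PTZ RNA was labelled with Cy5 in replicates 1 and 2 of each time point (forward arrays) and with Cy3 in replicates 3 and 4 (swapped arrays). Orientation was taken from the title, because 3 arrays have labels that disagree among themselves about dye or treatment, namely replicate 2 of the 2nd day and, at 12 hrs, replicates 3 and 4. For the swapped arrays, the sources used here do not say whether deposited ratios already run as PTZ over NF. Values over all 4 arrays are therefore given in 2 readings, turned (the sign of the swapped arrays reversed) and as deposited, and their direction is not settled. The study lists the 4 genes as lower on the 7th day. Of the 4 probe means tested on that day, 4 were below 0 as deposited and 0 were turned. On forward arrays the ratio is PTZ over NF in either reading, but a dye effect stays in them. As deposited, the correlation between the arrays of a time point ran from -0.27 to 0.73 over all shared features. The median feature lay between -0.20 and 0.16 on 11 arrays and at -0.64 on replicate 4 of the 7th day, which stood apart. Between 6148 and 18086 of 27648 spots had a value on an array, and the 2 lowest numbers were those of replicates 2 and 4 of the 7th day. All values below are log2 ratios, with the position of 0 left as the authors set it.

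**Figure D1:**
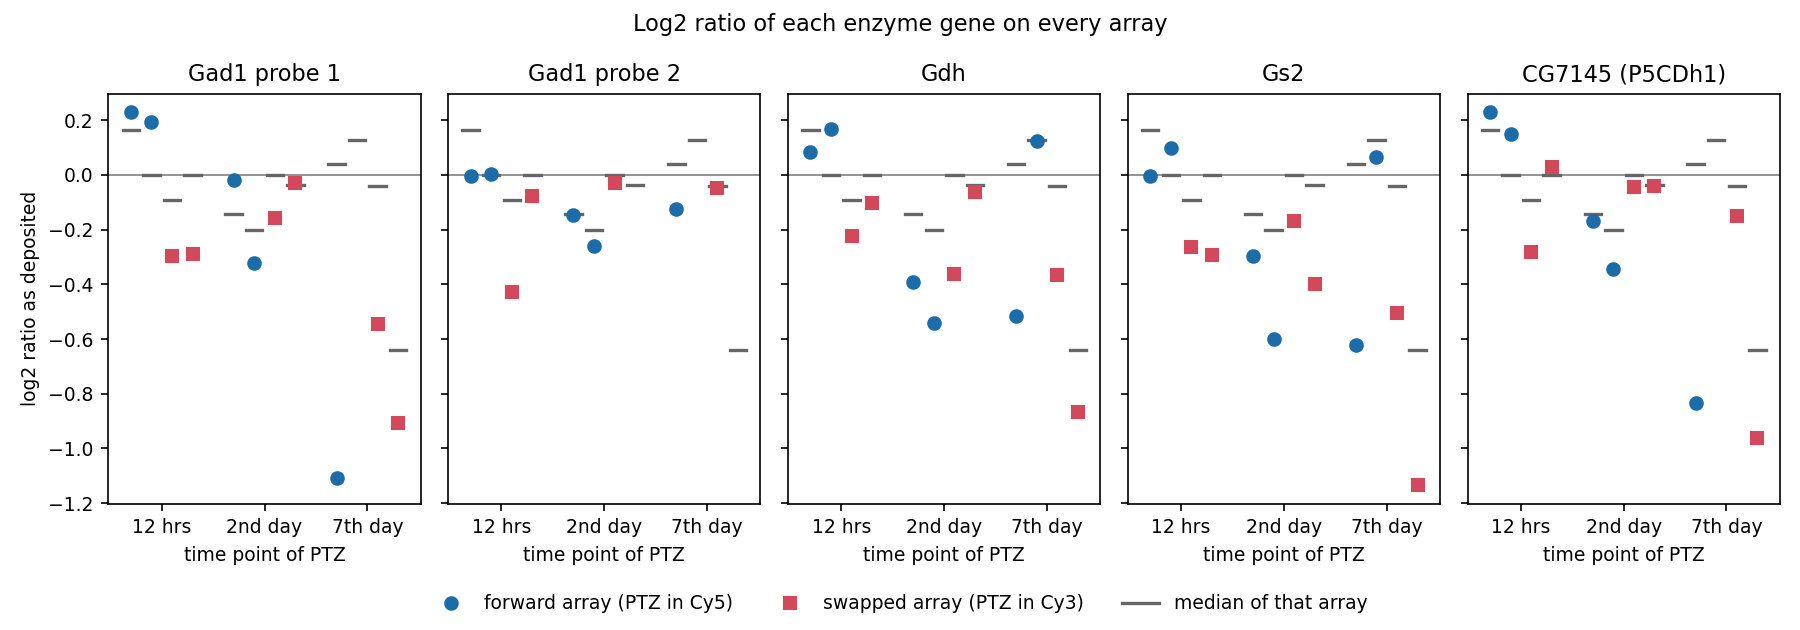
Log2 ratio as deposited (vertical axis) of each of the 5 probes on every array, by time point (horizontal axis), with circles for forward and squares for swapped arrays and a grey bar at the median of the same array, in the order of replicates 1 to 4. On the 2nd day every measured value of every probe was below 0, and on the 7th day Gdh and Gs2 were above 0 on replicate 2 alone.

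Gad1 was the member with the lowest single-probe mean as deposited, on the 7th day, and its probes gave different values there. At 12 hrs probe 1 was at 0.23 and 0.19 on the forward arrays and, as deposited, at -0.30 and -0.29 on the swapped arrays. Its 2nd day values were -0.02 and -0.32 on the forward and -0.16 and -0.03 on the swapped arrays. Its 7th day values were -1.11 on replicate 1, -0.54 on replicate 3 and -0.91 on replicate 4, with none on replicate 2. The 12 hrs values thus had opposite signs in the 2 orientations, whereas those of the 2nd and the 7th day were all negative as deposited.

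The mean of Gad1 probe 1 at 12 hrs was 0.25 ± 0.05 turned (SD, n = 4) and -0.04 ± 0.29 as deposited (SD, n = 4). Turned, it was above 0 on 4 of 4 arrays, as were 22.9% of the features with 4 values. The adjusted p was 0.292 in limma with Benjamini-Hochberg adjustment over 4642 features, so the mean did not pass the threshold of 0.05 turned. The study also used one-class SAM, and at a less strict false discovery rate it reported only lower and no higher genes at 12 hrs. In one-class SAM here, which weighs the mean against sign flips of the arrays, Gad1 probe 1 passed as higher turned, with a false discovery rate of 0.0477. So did 2.69% of the features on the higher and 0.0215% on the lower side. Of the 5 probes Gad1 probe 1 was the only one that passed in this test, and the rates of the other 4 were 0.150 to 0.263. On the forward arrays alone, which leave out both swapped arrays with contradictory labels, it had a mean of 0.21 with an adjusted p of 0.490 in limma, where 1.30% of the features passed on the lower and 1.42% on the higher side.

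For Gad1 probe 1 on the 7th day the mean was 0.11 ± 1.08 turned and -0.85 ± 0.29 as deposited (SD, n = 3 for both). As deposited it was below 0 on 3 of 3 arrays, as were 27.2% of the features with 3 values, and 0.695% of the 4316 features tested had a lower mean. The adjusted p in limma was 0.970 turned and 0.0623 as deposited. Without replicate 2, on which the probe had no value, the same mean had an adjusted p of 0.0151 as deposited, in a fit that estimated the spread of all features without that array. In that fit 2.06% of the features were called lower and 0.0927% higher. The probe stayed below the median of each array after that median was subtracted, at -1.15, -0.50 and -0.27. Centred in this way, its mean as deposited was -0.64, with an adjusted p of 0.634 in limma.

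Gad1 probe 2 was near 0 on more arrays. At 12 hrs it was at -0.0040 and 0.0025 on the forward and, as deposited, at -0.43 and -0.08 on the swapped arrays. The measured values of the 2nd day were -0.15, -0.26 and -0.03, and on the 7th day they were -0.13 on replicate 1 and -0.05 on replicate 3. With 2 values it was not tested on the 7th day. The gap between the probes of Gad1 was thus -0.98 and -0.50 on the 2 arrays of the 7th day that had both. The larger difference between adjacent spots of either probe was 0.26 and 0.19 there. At 12 hrs and on the 2nd day the gaps ran from -0.21 to 0.23 over 7 arrays and were within that spot difference on 6 of them. Which part of the gene each probe covers, and how far either probe binds other transcripts, was not tested.

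The mean of Gad1 probe 2 at 12 hrs was 0.13 ± 0.20 turned and -0.13 ± 0.20 as deposited (SD, n = 4), with adjusted p of 0.524 and 0.997 in limma. Probe 1 on the 2nd day had a mean of -0.04 ± 0.20 turned and -0.13 ± 0.14 as deposited (SD, n = 4), and probe 2 had -0.13 ± 0.15 turned and -0.15 ± 0.11 as deposited (SD, n = 3). Neither probe passed on that day in limma, where the adjusted p were 0.443 to 0.912.

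Gs2, the glutamine synthetase gene, had the lowest deposited mean of the 5 on the 2nd day. Its values on the forward arrays of that day were -0.30 and -0.60, and those of the swapped arrays were -0.17 and -0.40 as deposited. The value of -0.17 is the mean of adjacent spots at 0.28 and -0.61, a difference of 0.89, and the other differences between adjacent spots of this probe were 0.037 to 0.23. All 4 values were below 0, and they were also below the median of their array.

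The 2 forward arrays put Gs2 at -0.45 ± 0.21 (SD, n = 2), 1.37-fold lower in PTZ than in NF heads, with an adjusted p of 0.00388 in limma over 4964 features. In this fit limma used a spread shared over all features, so the p does not measure the SD of the probe's own 2 values. Gs2 and Gdh were the 2 of 5 probes called lower on these arrays, where 33.3% of all features were and 7.43% were called higher. With each array centred on its median Gs2 was at -0.28 and no longer passed, with an adjusted p of 0.0708. Leaving out replicate 2, whose label contradicts itself, leaves the single value of -0.30. Over all 4 arrays of the 2nd day Gs2 was at -0.08 ± 0.45 turned and -0.37 ± 0.18 as deposited (SD, n = 4), with adjusted p of 0.852 and 0.172 in limma. Without replicate 2 the mean was 0.09 turned, so that its sign turned.

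At 12 hrs the values of Gs2 were -0.0045 and 0.10 on the forward and -0.26 and -0.29 on the swapped arrays as deposited. The 7th day gave -0.62 and 0.07 on the forward and -0.50 and -1.13 on the swapped arrays. Replicates 1 and 2 of the 7th day, of the same orientation, therefore lay on either side of 0. The mean at 12 hrs was 0.16 ± 0.14 turned and -0.11 ± 0.19 as deposited (SD, n = 4), and that on the 7th day was 0.27 ± 0.74 and -0.55 ± 0.49. Of the features tested on the 7th day, 4.87% had a lower mean as deposited. Neither time point passed in limma, with adjusted p from 0.318 to 0.997 over both readings. Without replicate 2 the 7th day mean as deposited was -0.75, with an adjusted p of 0.0450, a call that 2.06% of the features shared on the lower side.

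Gdh, the glutamate dehydrogenase gene, gave the largest called difference on forward arrays. On the 2nd day it was at -0.39 and -0.54 on the forward and at -0.36 and -0.06 on the swapped arrays as deposited. The forward mean was -0.47 ± 0.11 (SD, n = 2), 1.38-fold lower in PTZ than in NF heads, with an adjusted p of 0.00271 in limma, again on the shared spread. With the arrays centred on their medians it was at -0.29 and still passed, with an adjusted p of 0.0479, as did 15.1% of all features on the lower and 15.2% on the higher side. Of the forward means of all features, 15.9% were lower than that of Gdh. Replicate 1 alone, without the array with the contradictory label, gave the -0.39.

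Over all 4 arrays of the 2nd day Gdh had a mean of -0.13 ± 0.41 turned and -0.34 ± 0.20 as deposited (SD, n = 4), with adjusted p of 0.756 and 0.194 in limma. Without replicate 2 the turned mean was 0.01. When the fit as deposited also held a coefficient for the dye orientation, Gdh was at -0.34 with an adjusted p of 0.00374 and Gs2 at -0.37 with 0.00215 in limma, while 23.5% of all features were called lower and 5.70% higher. This mean is the difference between PTZ and NF if the deposited ratios of swapped arrays were already turned, and otherwise the difference between dyes. In the same fit on turned values none of the 5 probes passed, with adjusted p of 0.324 to 0.797, where 14.1% of the features were called lower and 4.43% higher.

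At 12 hrs Gdh was at 0.09 and 0.17 on the forward and at -0.22 and -0.10 on the swapped arrays as deposited. It was thus above 0 on 4 of 4 arrays turned, like Gad1 probe 1, with a mean of 0.14 ± 0.06 (SD, n = 4). The adjusted p in limma was 0.407. As deposited the mean was -0.02 ± 0.18. The 7th day gave -0.52 and 0.12 on the forward and -0.37 and -0.87 on the swapped arrays, a spread that left the mean at 0.21 ± 0.57 turned and -0.41 ± 0.41 as deposited (SD, n = 4). The adjusted p were 0.964 and 0.528 in limma.

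CG7145, the gene of proline breakdown, followed Gad1 probe 1 more closely than any other of the probes did. It was at 0.23 and 0.15 on the forward and at -0.28 and 0.03 on the swapped arrays of 12 hrs as deposited. The 2nd day gave -0.17 and -0.34 on the forward and -0.04 on both swapped arrays. Its 7th day values were -0.83 on replicate 1, -0.15 on replicate 3 and -0.96 on replicate 4, with none on replicate 2. As deposited, all values after 12 hrs were below 0.

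The mean of CG7145 was 0.16 ± 0.14 turned and 0.03 ± 0.22 as deposited at 12 hrs (SD, n = 4). Its 2nd day mean was -0.11 ± 0.19 turned and -0.15 ± 0.14 as deposited, and the forward mean of -0.26 had an adjusted p of 0.114 in limma. The 7th day mean was 0.09 ± 0.90 turned and -0.65 ± 0.44 as deposited (SD, n = 3). CG7145 did not pass at any time point in limma in either reading, with adjusted p of 0.298 to 0.997. As deposited, 2.48% of the features tested had a lower mean on the 7th day.

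**Figure D2:**
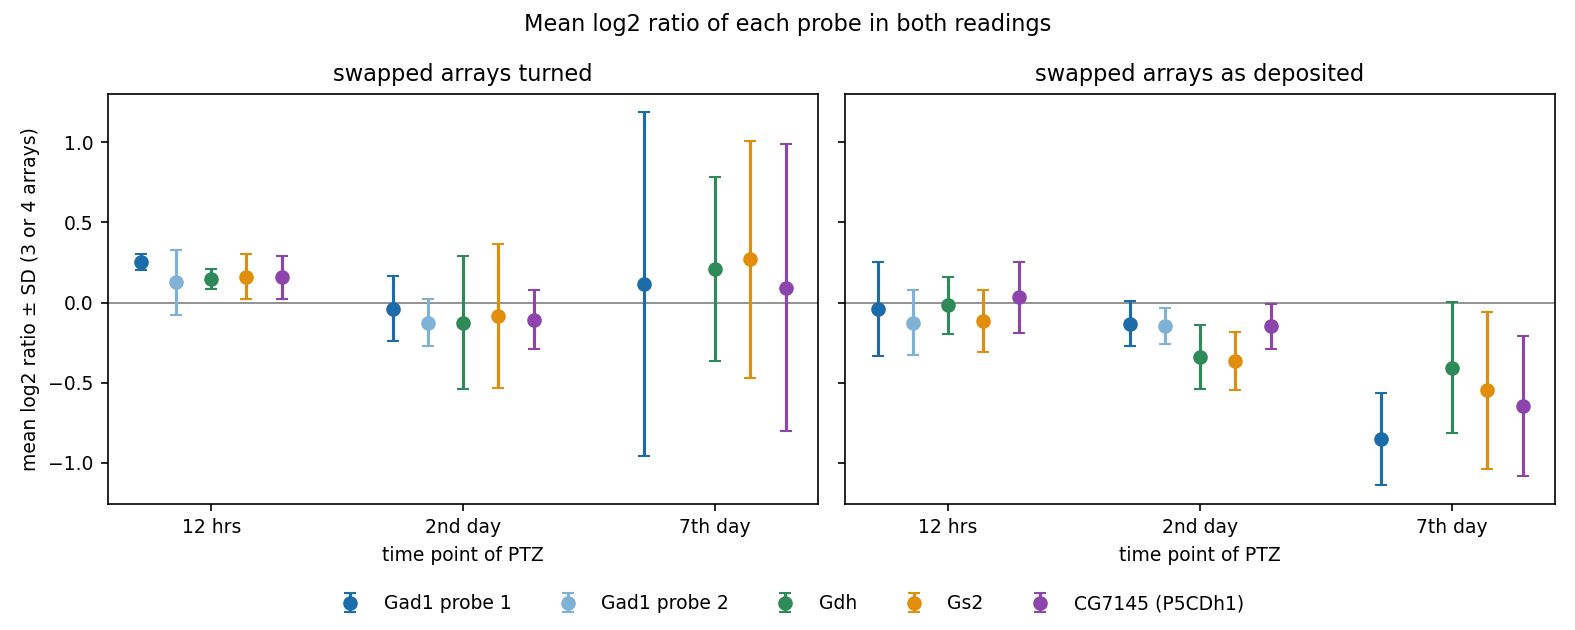
Mean log2 ratio ± SD (vertical axis) of each probe over the 3 or 4 arrays of a time point (horizontal axis), with the swapped arrays turned (left) and as deposited (right). The SD bars of the 7th day cross 0 for every probe turned, and Gad1 probe 2 is left out there because it had 2 values.

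By time point, 0 of 5 probes passed at 12 hrs, as on the 2nd day, and 0 of 4 did on the 7th in the turned reading, where 0% of all features passed in either direction in limma. With limma's p taken before adjustment, 3.73% of the features passed 0.05 on the lower and 11.9% on the higher side at 12 hrs. The shares were 7.50% and 1.82% for the 2nd day, and 0.440% and 1.83% for the 7th day. Gad1 probe 1 was one of those at 12 hrs, with an unadjusted p of 0.0182, and no other probe was among them at any time point turned. As deposited these shares were 1.53% lower and 1.81% higher at 12 hrs, with none of the probes among them. Gdh (unadjusted p = 0.0115 in limma) and Gs2 (0.00673) were among the 17.8% lower for the 2nd day, when 3.07% were higher. Gad1 probe 1 (0.000563), Gs2 (0.0105) and CG7145 (0.00892) were among the 9.06% lower for the 7th day, when 0.579% were higher. After adjustment the members passed at no time point as deposited either, against 0% of all features at 12 hrs, 0.0189% lower for the 2nd day, and 0.626% lower and 0.0463% higher on the 7th. At 12 hrs the median of the 5 turned means was 0.16, and that of all features tested was 0.07. The medians on the 2nd day were -0.11 and -0.08 turned and -0.15 and -0.10 as deposited. On the 7th day the members had 0.16 and all features 0.16 turned, whereas as deposited the members had -0.60 and all features -0.13. Features differed in which arrays of that day had a value. Gad1 probe 1 and CG7145 had none on replicate 2, with an array median of 0.13, but had one on replicate 4, with an array median of -0.64. The part of this in the gap as deposited, and in the shares of features with a lower 7th day mean, was not tested.

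The 7th day members as deposited were low both before and after the arrays were centred. The 4 genes are on the study's list of genes lower on that day, which was made on these same arrays. The counts below therefore describe the genes and are no test of them. All values measured on replicates 1, 3 and 4 were below 0, with 5 of 5, 5 of 5 and 4 of 4 probes, and both values on replicate 2 were above 0. Of all features, 46.6% were below 0 on replicate 1, 58.2% on replicate 3, 86.1% on replicate 4 and 36.7% on replicate 2. Relative to the median of the array every value was below, also on replicate 2. Of all features, 17.3% of those with 3 values and 5.88% of those with 4 values were below the median on every measured array. Gdh lay only 0.0030 below the median on replicate 2, and Gad1 probe 2 only 0.0060 below it on replicate 3. Replicates 1 and 2 had a correlation of -0.14 over 2944 features, although their orientation was the same. As deposited, 4 of 4 probes with 4 values were below 0 on all arrays of the 2nd day, where 25.1% of the features were. After the array medians were subtracted 3 of the 4 were, where 15.1% were. Gad1 probe 1 was the exception.

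**Figure D3:**
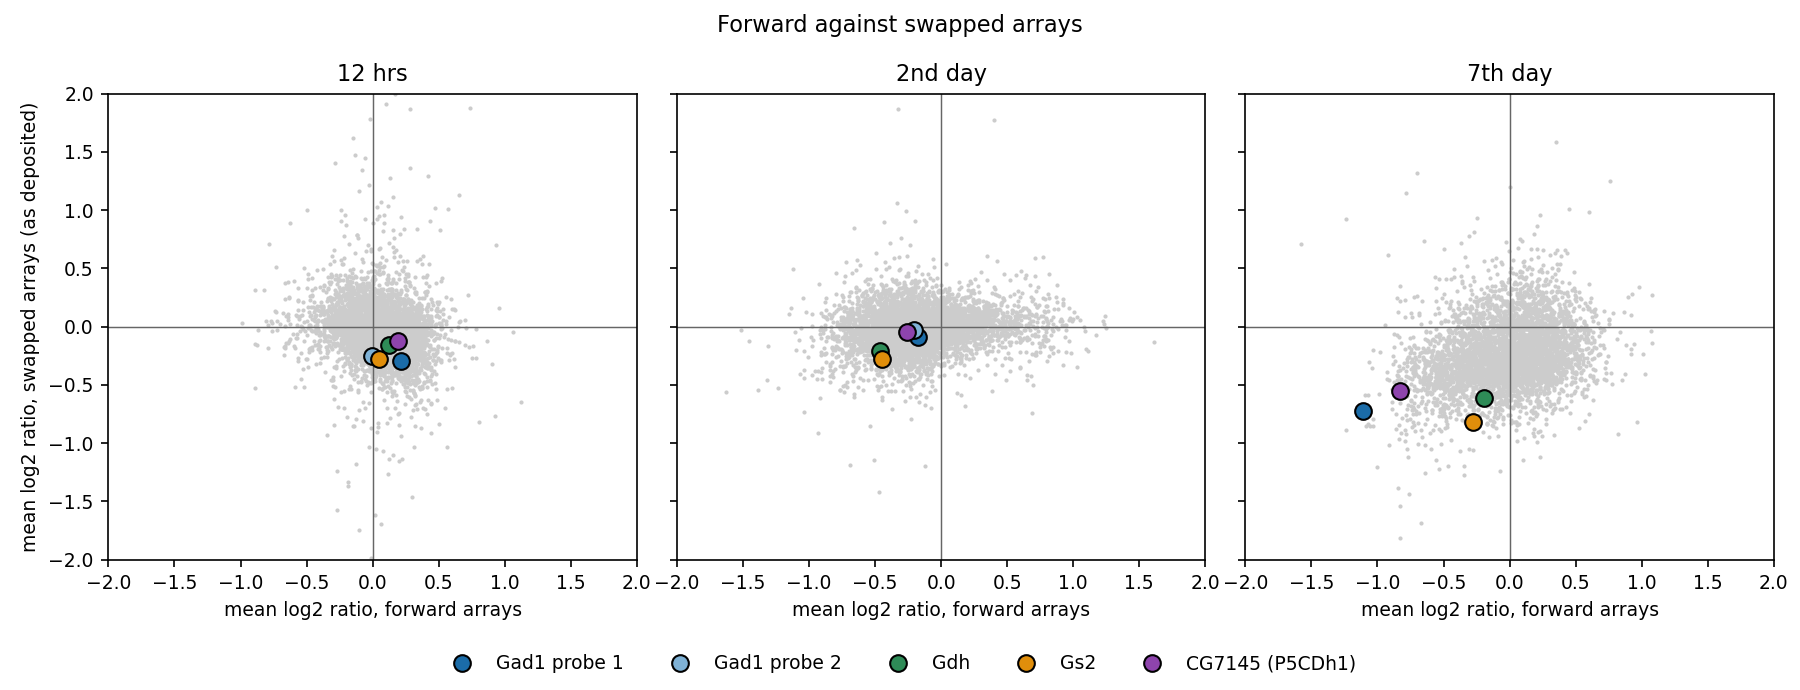
Mean log2 ratio on the forward arrays (horizontal axis) against that on the swapped arrays as deposited (vertical axis) at each time point, for features with at least 3 values (grey) and for the probes of the 4 genes (coloured). Axes end at 2 on either side, which leaves out 6 features of 12 hrs, 0 of the 2nd day and 2 of the 7th. The probes lie at or to the right of 0 and below 0 at 12 hrs, and in the lower left on the 2nd and the 7th day.

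Between time points, the turned means of the 4 probes with enough values did not pass the threshold in any contrast of 1 limma fit over the 12 arrays, with adjusted p of 0.506 to 0.989 over 2079 features, of which 0% passed in any contrast other than 0.0481% that were lower on the 7th than on the 2nd day. From 12 hrs to the 2nd day all 4 differences were negative, from -0.29 for Gad1 probe 1 to -0.25 for Gs2. As deposited the lowest difference was that of Gad1 probe 1 between 12 hrs and the 7th day, at -0.81 with an adjusted p of 0.0979, where 0.722% of the features were called lower. The turned mean of the 2nd day was the lowest of the 3 for all 4 probes. The turned median of all features tested took the same course, at 0.07, -0.08 and 0.16. The shares of features with a fall from 12 hrs to the 2nd day, or with the lowest mean on the 2nd day, were not counted. With centred arrays the differences between the 2nd and the 7th day were -0.16 for Gad1 probe 1, -0.12 for CG7145, 0.05 for Gdh and 0.06 for Gs2. For Gad1 probe 1 its 4 turned values, -0.32 to 0.16, lay below all 4 of 12 hrs, 0.19 to 0.30, as they did for 8.31% of the 3118 features with 4 values at both, although limma did not call the difference. As deposited these values overlapped, and those of the other 3 probes overlapped turned. Without replicate 1 of the 7th day, Gad1 probe 1 rose by 0.77 from the 2nd to the 7th day turned, with an adjusted p of 0.0395, as did 12.1% of the features, while 0.0962% fell. The 2 values left on the 7th day were then both from swapped arrays.

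On forward arrays only, a comparison chosen after the data were seen, Gdh fell by 0.59 from 12 hrs to the 2nd day, with an adjusted p of 0.0326 in limma over 3581 features, of which 11.5% were called lower and 0.419% higher. The standard error in limma was 0.196 for every probe in this contrast, from a spread shared over all features and not from the probe's own values. Gs2 differed by -0.50 with an adjusted p of 0.0684, CG7145 by -0.45 with 0.101, Gad1 probe 1 by -0.38 with 0.160 and Gad1 probe 2 by -0.20 with 0.465. With the 4 arrays centred on their medians Gdh was at -0.34 with an adjusted p of 0.271. The medians of the forward arrays were 0.16 and 0.0010 at 12 hrs and -0.14 and -0.20 on the 2nd day, and their part in these differences beyond the centred values was not tested.

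The likeness of patterns was taken as the mean absolute difference of log2 ratios over the arrays that both features shared, which is the same in both readings. Between Gad1 probe 1 and CG7145 it was 0.13 over 11 arrays, and 0.945% of the 2646 named features compared were closer to Gad1 probe 1. Closer to CG7145 than Gad1 probe 1 were 2.65%. Gdh and Gs2 differed by 0.14 over 12 arrays, with 0.656% of the features closer to Gs2 and 2.19% closer to Gdh. The probes of Gad1 differed by 0.28 over 9 arrays. Of the features compared, 31.5% were closer to probe 1 than probe 2 was, and 75.7% were closer to probe 2 than probe 1 was. The likest features were those of RacGAP84C and GstE13 for Gad1 probe 1, at 0.058 and 0.080 over 8 arrays. For probe 2 they were isoQC and Actn, for Gdh Smn and sty, for Gs2 orb2 and Not11, and for CG7145 CG13476 and MrgBP, at 0.059 to 0.11 over 8 to 11 arrays. These values are descriptions over arrays that share time points and, in part, dye orientation.

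Other enzymes of glutamate, glutamine, GABA and proline metabolism had 7 named features, of 6 of the 12 genes listed. Got1, which the study counts among its 7th day genes, had no named feature here. None of them passed in limma at any time point in either reading. Their turned median was -0.02 over 5 features at 12 hrs, -0.03 over 6 on the 2nd day and 0.11 over 4 on the 7th day. Gabat, the GABA transaminase that breaks down GABA, was at 0.20 and 0.26 on the forward and at -0.18 and -0.32 on the swapped arrays of 12 hrs as deposited, signs that match those of Gad1 probe 1. Its 7th day values were -1.07 and 0.58 on the forward and -0.26 and -1.05 on the swapped arrays, again positive on replicate 2 alone. slgA, the proline dehydrogenase that acts before CG7145, was at -0.48 on replicate 1, 0.04 on replicate 3 and -0.86 on replicate 4 of the 7th day. P5cr-2, a pyrroline-5-carboxylate reductase that makes proline, had 2 features that differed. One was positive on all 3 measured arrays of the 2nd day as deposited, at 0.24, 0.44 and 0.21, where each of the 5 member probes was negative. The other was at -0.02 and 0.01 on the forward and 0.11 and -0.13 on the swapped arrays. The mean of the first was 0.30 ± 0.13 (SD, n = 3) with an adjusted p of 0.216 in limma. Gs1, the gene of the other glutamine synthetase, had 2nd day values of -0.99 and -0.03 on the forward and of 0.01 and 0.30 on the swapped arrays as deposited.

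**Figure D4:**
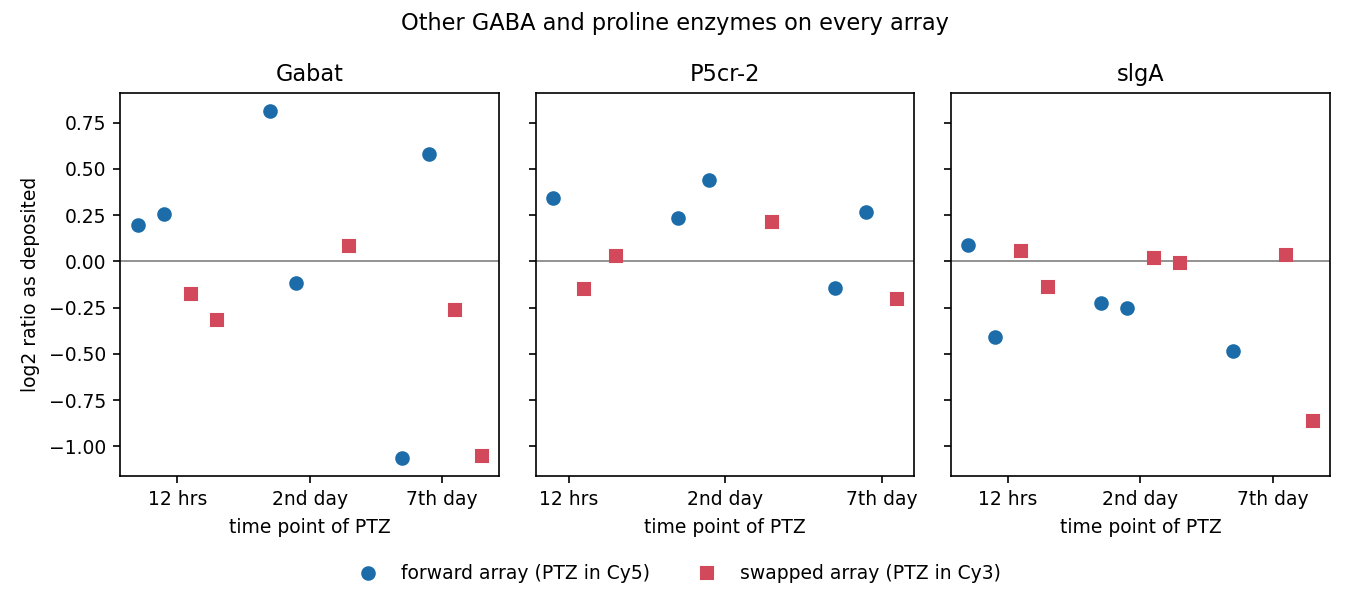
Log2 ratio as deposited (vertical axis) of Gabat, slgA and 1 of the 2 features of P5cr-2 on every array, by time point (horizontal axis), with circles for forward and squares for swapped arrays in the order of replicates 1 to 4. Gabat has its highest 7th day value, 0.58, on replicate 2 and its lowest, -1.07, on replicate 1.

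Of the genes of other glutamate and glutamine use, 6 of 10 had a named feature. Of the citric acid cycle 9 of 17 had one, and of transport and receptors of both transmitters 6 of 14. The other genes may have been spotted without a name, since 7558 of 13824 features had 1 symbol. None of the named features passed in limma at any time point in either reading. With at least 3 values needed, only 1 of 7 features of other glutamate and glutamine use was tested on the 7th day. The counts were 4 of 11 for the citric acid cycle and 2 of 6 for transport and receptors. Gclm, the modifier subunit of the enzyme that starts glutathione synthesis from glutamate, had a 12 hrs mean of 0.31 ± 0.48 turned (SD, n = 4). In the citric acid cycle Mdh1, the cytosolic malate dehydrogenase, was at 0.40 ± 0.14 turned at 12 hrs (SD, n = 4, adjusted p = 0.237 in limma). The 2 features of SdhD, a subunit of succinate dehydrogenase, were at 0.0046 ± 0.13 and 0.12 ± 0.15, and Scsalpha1, a subunit of succinyl-CoA synthetase, at 0.21 ± 0.19. GluClalpha, the glutamate-gated chloride channel, was negative on all 4 arrays of the 2nd day as deposited, at -0.85, -0.67, -0.35 and -0.32. Its mean of -0.55 ± 0.26 had an adjusted p of 0.115 in limma. Lcch3, a GABA receptor subunit, was at -0.50 and -0.46 on the forward arrays of that day and at 0.10 on the measured swapped array.

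Markers of the cells of the head were measured in part. Of the neuron list 2 of 6 genes had a named feature, of the glia list 4 of 6, of the photoreceptor list 4 of 6, of the fat body list 6 of 6 and of the muscle list 4 of 6. The defining markers elav of neurons and repo of glia are unnamed here, so the share of these cells could not be followed through them. On the 2nd day, when Gdh and Gs2 were called lower on forward arrays, nSyb, a synaptic vesicle gene, was at 0.07 and -0.36 there. The photoreceptor gene inaD was at -0.01 and -0.21, whereas Arr1 of the same list was at 0.29 and 0.14. Over the lists, the forward median of that day was -0.23 for 2 neuron features, 0.02 for 2 glia features, 0.22 for 3 photoreceptor features, -1.24 for 5 fat body features and -0.05 for 4 muscle features, beside -0.20 for all features. The 2 features of apolpp, the apolipophorin gene of the fat body, were lower, at -1.70 and -1.56 for one and -1.02 and -1.45 for the other. On the 7th day both features of apolpp passed as deposited, with means of -1.05 and -1.21 and adjusted p of 0.00973 and 0.000956 in limma, and 2 of 3 fat body features tested were called lower. The rest of the list did not share one direction on that day as deposited. Fbp1, the third feature tested, had a mean of 0.18, Yp1 was at 0.94 and 1.14 on the swapped arrays and Yp2 at 1.10 and -0.15 on the forward arrays, while a feature of Obp99b was at -0.88 on replicate 1 and -1.36 on replicate 3. No feature of the other marker lists passed at any time point in either reading. On the 7th day 2 of 2 neuron, 0 of 5 glia, 2 of 4 photoreceptor and 2 of 4 muscle features had enough values to be tested. At 12 hrs, when Gad1 probe 1 was above 0 on all turned arrays, so were 22.9% of all features with 4 values. Among them were inaD, Arr1, Act79B and TpnC4, with turned means of 0.49, 0.55, 0.39 and 0.36 and none past the threshold. Tm2 of the muscle list and Lsp2 and Yp2 of the fat body list were among them too. Act88F of the muscle list was not, at 0.01 and -0.13 on the forward and 0.01 and -0.41 on the swapped arrays as deposited. Neither feature of apolpp was among them. The part of these cell types in the values of the 4 genes was not tested. Nor was it tested how far the listed genes, the yolk protein genes Yp1 and Yp2 among them, mark these cells in heads of males.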

How the data were processed

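The authors scanned the arrays with GenePix, normalised them by ratio in Acuity, filtered spots on intensity, background, saturation and flags, and deposited log2 ratios. All 12 deposited columns were mapped to samples by title. Each probe's 2 adjacent spots were combined into 1 feature by their mean, and features were named through the array annotation (7558 of 13824 with 1 symbol). Each time point was tested on its own with limma (version 3.58.1, R 4.3.3), mean log2 ratio against 0, 2-sided, with Benjamini-Hochberg adjustment over all features with at least 3 of 4 values and a threshold of 0.05. The forward arrays were tested in the same way on features with both values. Without centring, the spread in limma on those of 12 hrs and the 2nd day was shared over all features. The 4 genes, the lists and the tests were chosen with earlier results of these data known. Named are all probes of the 4 genes, the 2 likest features of each over at least 8 arrays, and per list up to 4 genes measured on at least 3 arrays at every time point. Gs1, Fbp1, Yp1, Yp2, Obp99b, Lsp2, Tm2, Act88F and the comparison of forward arrays between time points were added after values were seen. Scripts were tested on simulated data. Alternatives were the other reading, a dye coefficient, centring, scaling, subtraction of the median of the 20 nearest features (at least 5 of them measured), per-gene averages, 2 or 4 arrays as the minimum, one-class SAM with 16 sign flips, an unmoderated test, the replicate number as a block, a fit over all 12 arrays, and the omission of 1 array at a time. The number of arrays limits the precision, and no depth applies to them.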

Additional observations from a re-analysis of the deposited data

Results flagged for a closer look

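On the forward arrays 3 of the 5 probes had both values above 0 at 12 hrs and both below 0 on the 2nd day. The change from 12 hrs to the 2nd day was -0.59 for Gdh, with an adjusted p of 0.0326 in limma over 3581 features, -0.45 for CG7145 (adjusted p = 0.101) and -0.38 for Gad1 probe 1 (adjusted p = 0.160). Each rests on 2 arrays at either time point, and the label of replicate 2 of the 2nd day contradicts itself. The p rest on a spread that limma shared over all features, not on each probe's own spread. With these arrays centred on their medians the changes were -0.34, -0.19 and -0.13, and none passed. On the 2nd day 63.7% of all features were below 0 on both forward arrays, and at 12 hrs 42.8% were above 0 on both. The share of features with both patterns together was not counted, so the 3 of 5 probes have no matching share. In no group of 4 arrays did the highest or lowest value of a probe stand apart from the others by Dixon's criterion.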

How the results depend on the processing

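No probe of the 4 genes passed in limma at any time point in the turned reading, and the signs of most means depend on how the swapped arrays are read. Of 507 values of the 5 probes under an alternative, 394 kept their sign and their side of the threshold, 107 changed sign (2 of them past the threshold, on the 7th day as deposited without replicate 2), 5 others passed that had not and 1 no longer passed. Some alternatives return the same mean by construction, so the 394 is no measure of robustness. These are one-class SAM, the unmoderated test, other minimum numbers of arrays and the fit over all 12 arrays. Leaving out an array of a time point that a contrast does not use also keeps the difference. With 4 arrays, or 2 of 1 orientation, small differences cannot be separated from the spread, and the cause of each change below was not tested. As deposited, the means of Gad1 probe 1, Gad1 probe 2, Gdh and Gs2 at 12 hrs were -0.041, -0.13, -0.018 and -0.11, the same with a dye coefficient, and -0.059, -0.15, -0.036 and -0.13 with centred arrays. On the 7th day those of Gad1 probe 1, Gdh, Gs2 and CG7145 were -0.85, -0.41, -0.55 and -0.65 as deposited, -0.92, -0.41, -0.55 and -0.69 with a dye coefficient, and -0.64, -0.28, -0.42 and -0.43 with centred arrays. Adjusted p as deposited were 0.997 for the former and 0.0623 to 0.528 for the latter.

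Turned, a dye coefficient put Gad1 probe 1 at -0.19 and CG7145 at -0.14 on the 7th day. Centring put Gad1 probe 1 at -0.13, Gdh at -0.0010 and CG7145 at -0.15 there, and Gad1 probe 1 at 0.038 on the 2nd day. With the neighbour median subtracted, Gad1 probe 1 was at 0.057 and CG7145 at 0.015 on the 2nd day, and Gad1 probe 1 at -5e-04, Gs2 at -0.051 and CG7145 at -0.033 on the 7th day. For Gdh and Gs2 this gave no value before the 7th day. Centring with scaling put Gad1 probe 1, Gdh and Gs2 at 0.047, 0.0071 and 0.069 on the 2nd day and CG7145 at -0.039 on the 7th day. On centred forward arrays Gs2 was at -0.035 at 12 hrs and Gad1 probe 1 at 0.0020 on the 2nd day. With 1 array left out at a time, the ranges given next pool both readings and so also hold the change of reading. For Gad1 probe 1 at 12 hrs the means were 0.24 to 0.27 turned and -0.13 to 0.04 as deposited. Pooled, the 12 hrs means ran from -0.13 to 0.27 for Gad1 probe 1, -0.17 to 0.17 for Gad1 probe 2, -0.08 to 0.16 for Gdh, -0.19 to 0.22 for Gs2 and -0.034 to 0.22 for CG7145. On the 2nd day the ranges were -0.17 to 0.055 for Gad1 probe 1, -0.43 to 0.012 for Gdh and -0.43 to 0.0895 for Gs2. On the 7th day they were -1.01 to 0.73 for Gad1 probe 1, -0.58 to 0.45 for Gdh, -0.75 to 0.57 for Gs2 and -0.90 to 0.55 for CG7145.

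The number of features called was 0 at each time point turned. Leaving out 1 array gave 0 to 61 at 12 hrs (61 without replicate 3), 0 to 114 on the 2nd day (65 turned without replicate 3, 114 as deposited without replicate 4) and 0 to 93 on the 7th day (31 turned without replicate 1, 93 as deposited without replicate 2). One-class SAM called 126, 2 and 2 features. As deposited, 1 and 29 were called at the later time points. A dye coefficient gave 976 on the 2nd day turned, and 1541 and 9 at the later time points as deposited. Averaging per gene gave 1 on the 7th day.

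From the 2nd to the 7th day, where 1 feature was called, the differences as deposited were -0.72 for Gad1 probe 1, -0.068 for Gdh, -0.18 for Gs2 and -0.50 for CG7145. With centred arrays those of Gad1 probe 1 and CG7145 were -0.16 and -0.12. Leaving out 1 array gave 0 to 254 calls (254 without replicate 1 of the 7th day), -0.24 to 0.77 for Gad1 probe 1 and -0.24 to 0.66 for CG7145. Forward arrays only, added after the data were seen, gave 0 calls, also centred, with Gs2 at -0.085 when centred. From 12 hrs to the 7th day, where 0 were called, there were 15 calls as deposited and 1 with centred arrays. Gdh was at -0.39 and Gs2 at -0.43 as deposited, -0.081 and -0.039 with centred arrays, and -0.32 and -0.33 on forward arrays only, -0.32 and -0.33 when these were centred. Leaving out 1 array gave 0 to 2 calls, -0.54 to 0.47 for Gad1 probe 1, -0.15 to 0.31 for Gdh, -0.18 to 0.41 for Gs2 and -0.50 to 0.40 for CG7145. From 12 hrs to the 2nd day, where 0 were called, forward arrays only gave 428 calls, and 1 when centred.

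No label says that a replicate number marks samples shared between time points. The correlations of same-numbered arrays were -0.05 to 0.20 turned and -0.02 to 0.29 as deposited. Such values cannot decide whether the numbers pair the samples, so both fits are given. With the replicate number as a block, 0, 1 and 0 features were called turned and 0, 1 and 17 as deposited, and no probe of the 4 genes passed. From the 2nd to the 7th day the blocked differences as deposited were -0.71 for Gad1 probe 1, -0.068 for Gdh, -0.18 for Gs2 and -0.51 for CG7145, and from 12 hrs to the 7th day -0.39 for Gdh and -0.43 for Gs2.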
